A study of Homo sapiens with 10 samples.

Results

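The response of HEK-293 cells to an siRNA against PAXIP1-AS1 was set against their response to siRNAs against LOC440173, gene by gene, as a difference of effects. The PAXIP1-AS1 effect was the mean log2 level in cells given an siRNA against this RNA at 100 nM minus the mean in cells given a control siRNA at 100 nM. The LOC440173 effect was the mean over siRNA 1 and siRNA 2 against that RNA, both at 10 nM, minus the mean in cells given the control siRNA at 10 nM. The difference of effects was the PAXIP1-AS1 effect minus the LOC440173 effect, and it was also computed against siRNA 1 alone and against siRNA 2 alone. All 10 of the 10 arrays entered it, and it was computed for 18404 genes, each represented by the probe set with the highest mean over all arrays. A positive difference of effects means that a gene stood higher, relative to its own control, after PAXIP1-AS1 silencing than after LOC440173 silencing. It can come from a rise in the PAXIP1-AS1 arm, a fall in the LOC440173 arm or a mixture. Both effects are given for many of the genes named, and a difference given alone does not tell these apart.

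HEK-293 is a human embryonic kidney cell line that also carries neuronal features, and the study concerned non-coding RNAs enriched in the kidney. Cells were transfected with siRNA duplexes by a lipid reagent, and total RNA taken 48 hours later was measured on Affymetrix expression arrays. Each of the 5 groups had 2 arrays, which the labels name biological replicates: PAXIP1-AS1 siRNA at 100 nM, control siRNA at 100 nM, LOC440173 siRNA 1 at 10 nM, LOC440173 siRNA 2 at 10 nM, and control siRNA at 10 nM. All 10 arrays came from the same line and the same protocol, and the control was a commercial negative control duplex of undisclosed sequence. PAXIP1-AS1 was targeted by 1 siRNA and LOC440173 by 2, at different doses. The target, the siRNA sequence and the part of the dose that the controls do not share cannot be told apart in the difference of effects.

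PAXIP1-AS1 and LOC440173 are long non-coding RNAs, transcripts without a known protein product, some of which act on neighbouring genes and others on distant RNAs or proteins. PAXIP1-AS1 is now named PAXIP1-DT, the divergent transcript of PAXIP1, whose protein takes part in the DNA damage response and belongs to the KMT2C/KMT2D histone methyltransferase complex. An siRNA is loaded into an Argonaute protein, which it guides to matching transcripts.

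LOC440173 is listed under its present symbol LINC02893, on chromosome 9. Its log2 level was 8.54 and 8.54 with PAXIP1-AS1 siRNA, against 8.50 and 8.60 with the 100 nM control. With LOC440173 siRNA 1 it was 7.72 and 7.43, and with siRNA 2 it was 6.71 and 6.59, against 8.48 and 8.60 with the 10 nM control. The LOC440173 arrays lay below every other array, siRNA 2 lower than siRNA 1, and the PAXIP1-AS1 arrays lay within the range of the controls. The difference of effects was 1.42 ± 0.13 (log2, standard error (SE), limma adjusted p = 0.00105). PAXIP1-AS1 itself was not analysed here, since none of its probe sets is listed by the annotation used, so its silencing could not be checked on these arrays. PAXIP1, on chromosome 7, measured 10.56 and 10.59 with PAXIP1-AS1 siRNA and 10.56 and 10.56 with its control. It measured 10.53 and 10.47 with siRNA 1, 10.96 and 10.93 with siRNA 2, and 10.56 and 10.56 with their control. The siRNA 2 arrays stood above all the others. Its difference of effects was -0.15 (95% interval -0.29 to -0.0012) for the mean, with a limma adjusted p of 0.189. With all controls pooled it was called at -0.15 (limma adjusted p = 0.0322). Pooled controls cancel out of the difference, so this setting compares the PAXIP1-AS1 and LOC440173 siRNA arrays directly, at their different doses. Against siRNA 2 alone the difference was -0.37 (limma adjusted p = 0.00824), and against siRNA 1 alone it was 0.07 (limma adjusted p = 0.491). Of 11 measured members of the PAXIP1 and KMT2C/KMT2D complex, 0 were called in the PAXIP1-AS1 effect by limma, with 0 at an unadjusted p under 0.05. In the difference of effects 1 was called (9.09%, against 11.6% of all genes). This was ASH2L, a core subunit of the methyltransferase, at -0.27 (limma adjusted p = 0.0319). The ASH2L call ended whichever of the 10 arrays was left out, with limma adjusted p between 0.0526 and 0.130.

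The comparisons shared a single limma fit over all arrays, and a gene is named called where its Benjamini-Hochberg adjusted p over all 18404 genes was under 0.05. The difference of effects was called for 2129 genes, 11.6% of all genes. Of these 1617 were higher (8.79%) and 512 were lower (2.78%). Against siRNA 1 alone 3100 genes were called (16.8%, with 11.0% higher and 5.82% lower), and against siRNA 2 alone 3168 (17.2%, with 11.2% higher and 6.04% lower). The call in 1 direction for the mean and for each siRNA alone held for 807 genes (4.38%), 614 higher (3.34%) and 193 lower (1.05%). In all 807 the 2 PAXIP1-AS1 arrays, each minus its control mean, lay outside the range of the 4 LOC440173 arrays, as they did in 6837 of all genes (37.1%). The highest group mean reached the median level of all genes in 637 of the 807 (3.46%), 502 higher (2.73%) and 135 lower (0.734%), and the genes named for their size below come from these. A gene could thus pass only through the group where it stood highest. Only 99 genes were higher by 2-fold or more among those called (0.538%), and 6 were lower by as much (0.0326%). Of the single arrays left out, those of the PAXIP1-AS1 arm lowered the count of 2129 most: it was 1067 without PAXIP1-AS1 replicate 1, 923 without replicate 2, 1033 without 100 nM control replicate 1 and 1193 without 100 nM control replicate 2.

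**Figure D1:**
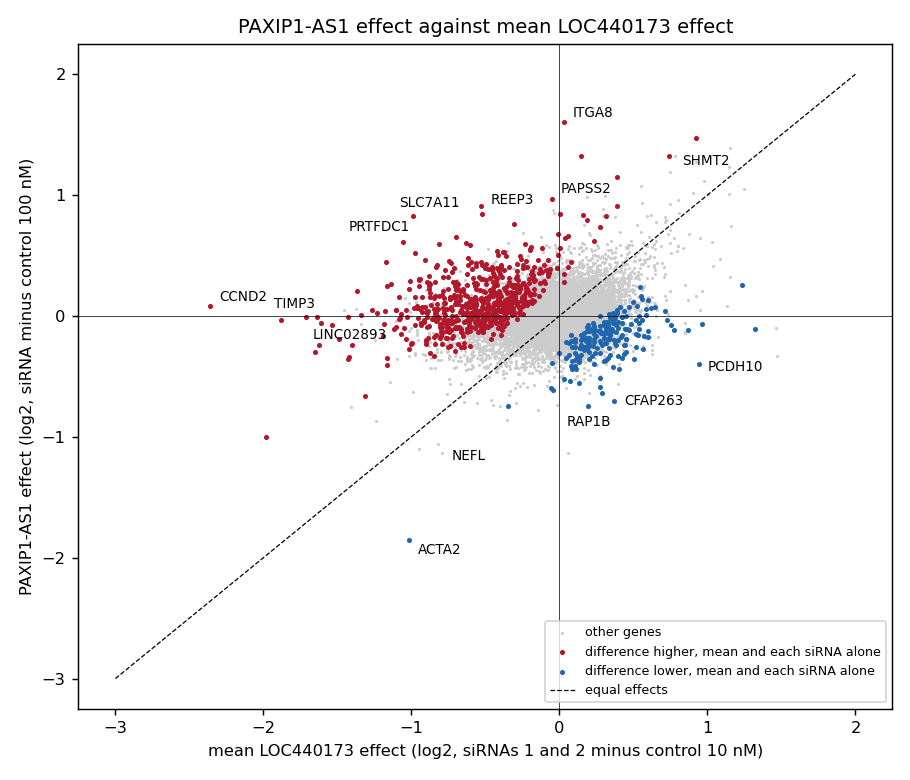
Each point is a gene, with the mean LOC440173 effect on the x axis and the PAXIP1-AS1 effect on the y axis (both log2, siRNA minus own control); red and blue mark genes whose difference of effects was called higher (614) and lower (193) for the mean and for each LOC440173 siRNA alone. Most red points lie left of 0, and the dashed line marks equal effects.

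Most of the called differences lay in genes that moved with LOC440173 silencing. The absolute PAXIP1-AS1 effect was the larger of the 2 in 436 of the 2129 genes, and the absolute LOC440173 effect in 1693. The LOC440173 effect was called and the PAXIP1-AS1 effect was not in 1628. The reverse held in 167, both effects were called in opposite directions in 118, both in the same direction in 66, and neither in 150. On its own the PAXIP1-AS1 effect was called for 850 genes (4.62%, with 2.86% higher and 1.76% lower), and the mean LOC440173 effect for 4754 (25.8%, with 9.35% higher and 16.5% lower). The standard deviation of the effect across genes was 0.16 for PAXIP1-AS1, 0.24 for the mean of the LOC440173 siRNAs, 0.30 for siRNA 1 and 0.31 for siRNA 2. The PAXIP1-AS1 and mean LOC440173 effects have no array in common, and across the 18404 genes their Pearson correlation was 0.19 and their Spearman correlation 0.13, given as a description, since genes are not independent replicates. Both effects were called in the same direction for 433 genes, 246 higher and 187 lower. The median difference over all genes was -0.02. The control at 100 nM minus the control at 10 nM, which enters the difference of effects with its sign turned, was called for 0 genes by limma, with 692 genes at an unadjusted p under 0.05 and a standard deviation across genes of 0.098.

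Markers of HEK-293 identity were present on all arrays, with a summed linear level over the 9 measured of 10 markers of 6427 and 6531 with PAXIP1-AS1 siRNA and 7552 and 7607 with its control. The sums were 6741 and 6661 with siRNA 1, 7852 and 8081 with siRNA 2, and 7577 and 7766 with their control. Of the 9, 2 were higher in the difference of effects (22.2%, against 8.79% of all genes), ENO2 and WT1. Another 2 were lower (22.2%, against 2.78%), NEFM and NEFL. In the PAXIP1-AS1 effect 1 was higher (11.1%, against 2.86%) and 3 lower (33.3%, against 1.76%). NEFM, the medium neurofilament chain, had a PAXIP1-AS1 effect of -0.52 and LOC440173 effects of -0.77 with siRNA 1 and 1.11 with siRNA 2. ENO2, the neuronal enolase, moved the other way, with a PAXIP1-AS1 effect of 0.57. The summed levels lay between 409.5 and 496.8 over all arrays for 10 liver cell markers, 608.9 and 797.6 for 10 markers of fibroblasts and vessels, 384.2 and 461.3 for 7 of blood, and 500.4 and 663.3 for 7 of keratinocytes. The median level of these lists was between 4.65 and 6.20 on every array, against 7.66 over all genes, and array values processed this way do not reach 0. Of these 4 lists, 1 gene of 34 measured was called in the difference of effects, CYP3A4, a liver cytochrome, at 0.46 on levels of 3.79 and 3.89 with PAXIP1-AS1 siRNA and 3.33 to 3.70 on all other arrays. Its call ended without 8 of the 10 single arrays. In a bulk measurement of a culture, fewer cells of a kind and less RNA per cell cannot be told apart.

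CCND2, cyclin D2, which activates CDK4 and CDK6 in G1, had the largest positive difference. It measured 10.23 and 10.22 with PAXIP1-AS1 siRNA and 10.20 and 10.09 with its control. The level was 7.21 and 7.13 with siRNA 1 and 8.23 and 8.37 with siRNA 2, against 10.05 and 10.14 with their control. The PAXIP1-AS1 arrays stood with the controls while all 4 LOC440173 arrays were far below them. The difference of effects was 2.44 ± 0.09 (SE, 95% interval 2.23 to 2.65, limma adjusted p = 9.95e-05), which is 5.43-fold. The PAXIP1-AS1 effect was 0.08, and the LOC440173 effects were -2.92 with siRNA 1 and -1.80 with siRNA 2.

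SLC7A11, the light chain of the cystine/glutamate antiporter, was the second largest and was made in another way. Its level was 10.77 and 10.88 with PAXIP1-AS1 siRNA, against 9.95 and 10.04 with the 100 nM control. It was 7.62 and 7.60 with siRNA 1 and 10.36 and 10.43 with siRNA 2, against 9.89 and 10.09 with the 10 nM control. The PAXIP1-AS1 arrays were the highest of all, siRNA 2 stood above its control as well, and siRNA 1 stood far below. The difference was 1.82 ± 0.10 for the mean (SE, limma adjusted p = 0.000245), with 3.21 against siRNA 1 and 0.42 against siRNA 2 (limma adjusted p = 0.0350).

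Of the other 10 genes with the largest positive differences, 5 had PAXIP1-AS1 effects between -0.08 and 0 and LOC440173 effects far below 0: TIMP3, RCAN3, CERK, PXDN and LINC02893. TIMP3, an inhibitor of metalloproteases that stays bound to the matrix, measured 9.31 and 9.25 with PAXIP1-AS1 siRNA and 9.28 and 9.29 with its control. It measured 7.81 and 7.71 with siRNA 1 and 7.17 and 7.63 with siRNA 2, against 9.33 and 9.25, for a difference of 1.70 (limma adjusted p = 0.00126). CERK, ceramide kinase, behaved alike at 1.55 ± 0.07 (SE), with a PAXIP1-AS1 effect of -0.06 and LOC440173 effects of -1.79 and -1.42. PXDN, peroxidasin, which crosslinks collagen IV, had a difference of 1.46 on effects of -0.08 for PAXIP1-AS1 and -1.36 and -1.71 for siRNA 1 and siRNA 2. RCAN3, a regulator of calcineurin, had a difference of 1.63 ± 0.22 (SE) on a PAXIP1-AS1 effect of -0.01. MMD, a membrane protein of the progestin and adipoQ receptor family, had a difference of 1.58. ST6GAL1, which adds sialic acid to glycoproteins, had a PAXIP1-AS1 effect of 0.52, not called, and LOC440173 effects of -0.88 and -1.07. In C12orf57 the PAXIP1-AS1 effect was called at 0.44 and the LOC440173 effects were -0.39 and -1.95, for a difference of 1.61.

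**Figure D2:**
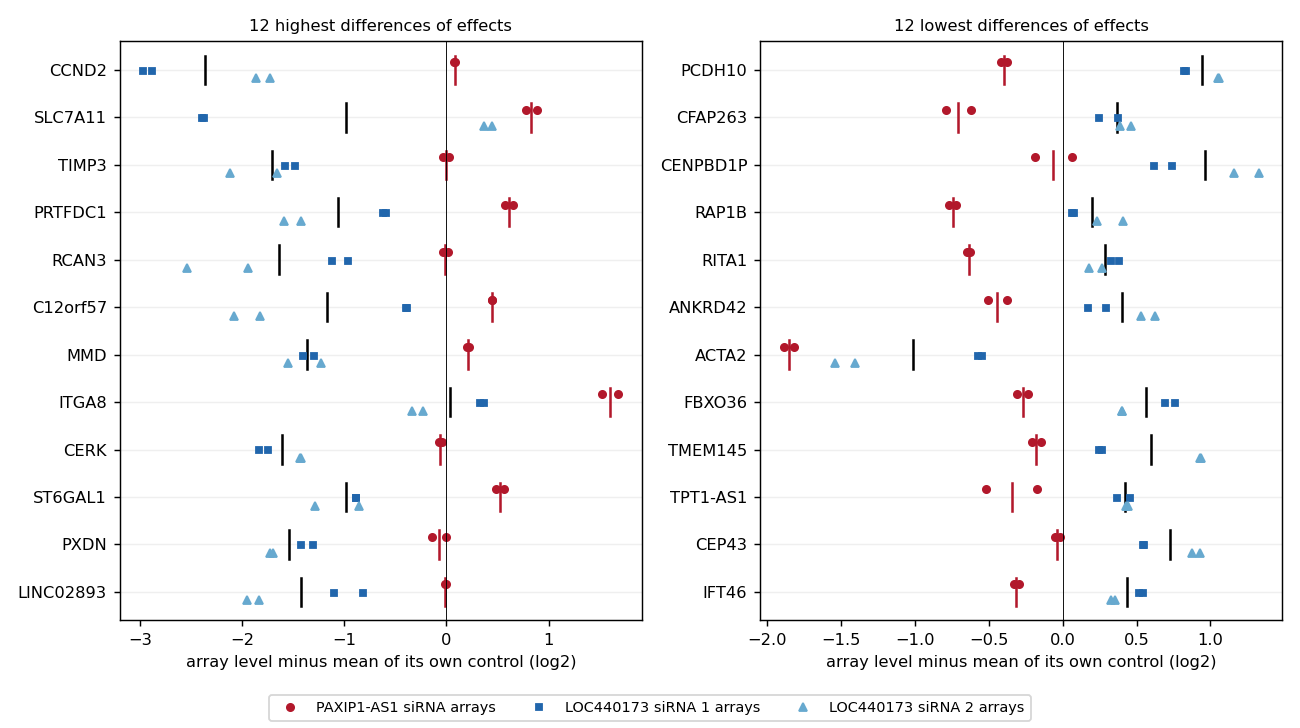
Each symbol is an array level minus the mean of its own control (log2) for the 12 highest and 12 lowest differences of effects, with red circles for PAXIP1-AS1 siRNA and blue squares and light blue triangles for LOC440173 siRNA 1 and siRNA 2. Red and black bars mark the mean PAXIP1-AS1 and mean LOC440173 effects, and ACTA2 is the gene where both lie far below 0.

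The largest negative differences were smaller. PCDH10, a protocadherin of cell adhesion, measured 9.26 and 9.30 with PAXIP1-AS1 siRNA and 9.68 and 9.68 with its control. It measured 10.50 and 10.51 with siRNA 1 and 10.74 and 10.73 with siRNA 2, against 9.70 and 9.66. The PAXIP1-AS1 arrays were below all controls and the LOC440173 arrays above them, for a difference of -1.34 ± 0.06 (SE, limma adjusted p = 0.000156). CFAP263, a protein of cilia and flagella, had 7.18 and 7.35 with PAXIP1-AS1 siRNA, against 7.91 and 8.04. It had 8.16 and 8.29 with siRNA 1 and 8.30 and 8.38 with siRNA 2, against 7.76 and 8.06, and the difference was -1.07 (limma adjusted p = 0.00377). IFT46, a subunit of the intraflagellar transport machinery, had a difference of -0.75, made of -0.31 for PAXIP1-AS1 and 0.53 and 0.34 for the LOC440173 siRNAs. CEP43, a centrosomal protein, had a difference of -0.76, on a PAXIP1-AS1 effect of -0.04 and LOC440173 effects of 0.55 and 0.90. FBXO36, an F-box protein, stood at -0.83, TMEM145 at -0.77, the pseudogene CENPBD1P at -1.02 and the antisense transcript TPT1-AS1 at -0.77. FBXO36 and CENPBD1P reached the median level of all genes (7.66) only with the LOC440173 siRNAs.

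ACTA2, smooth muscle actin, fell in both arms and fell further with PAXIP1-AS1. Its level was 7.36 and 7.43 with PAXIP1-AS1 siRNA, against 9.22 and 9.28 with the 100 nM control. It was 8.75 and 8.77 with siRNA 1 and 7.77 and 7.92 with siRNA 2, against 9.33 and 9.31 with the 10 nM control. The groups did not overlap, and PAXIP1-AS1 was lowest. The difference was -0.84 ± 0.08 (SE, limma adjusted p = 0.00121) for the mean, -1.29 against siRNA 1 and -0.38 against siRNA 2 (limma adjusted p = 0.0210). RAP1B, a small GTPase of integrin adhesion, had a difference of -0.94 from its brightest probe set, but -0.44 (limma adjusted p = 0.171) from the mean of its probe sets, so its call depends on the probe set. The other 23 of these 24 genes kept their call in all 17 alternative settings tried.

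The PAXIP1-AS1 and mean LOC440173 effects were called in opposite directions for 118 genes (0.641%). Of these, 97 were higher with PAXIP1-AS1 siRNA and lower in the LOC440173 mean, and 21 the reverse. The count moved widely, from 11 without PAXIP1-AS1 replicate 2 and 12 without replicate 1 to 306 with dim genes left out. Without 100 nM control replicate 1 it was 14, without replicate 2 it was 23, and without either siRNA 1 array it was 58 and 61. Of the 16 genes named here, the PAXIP1-AS1 call held in 5 whichever array was left out, and these were SLC7A11, TMC7, PRTG, REEP3 and RITA1.

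PRTG, protogenin, a receptor-like membrane protein of the developing nervous system, measured 9.68 and 9.69 with PAXIP1-AS1 siRNA, against 9.12 and 9.04 with its control. It measured 7.73 and 7.72 with siRNA 1 and 8.98 and 8.93 with siRNA 2, against 9.13 and 9.17. The siRNA 1 arrays were the lowest and siRNA 2 lay just under its control, for a difference of 1.41 ± 0.07 (SE, limma adjusted p = 0.000161). TMC7, a transmembrane channel-like protein, had 8.68 and 8.74 with PAXIP1-AS1 siRNA, against 8.10 and 8.12. It had 7.45 and 7.48 with siRNA 1 and 7.82 and 7.81 with siRNA 2, against 8.21 and 8.33, a difference of 1.23. REEP3, which shapes the endoplasmic reticulum, had a PAXIP1-AS1 effect of 0.84 and LOC440173 effects of -0.85 and -0.20, for a difference of 1.37. PRTFDC1, a homologue of the purine salvage enzyme HPRT1, had a difference of 1.67, with LOC440173 effects of -0.61 and -1.51. Of the 8 genes named as higher with PAXIP1-AS1 siRNA, the siRNA 2 effect was called lower in 6 and higher in 1, SLC7A11.

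The remaining 3 genes of this direction were FRRS1, a ferric reductase, DPYSL2, a tubulin-binding protein of axon growth, and SCD5, a fatty acid desaturase. Their differences were 1.19, 1.20 and 0.98, and their PAXIP1-AS1 effects of 0.59, 0.45 and 0.45 lost their call without 3 or 4 of the single arrays.

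In the reverse direction RITA1, which binds the Notch effector RBPJ and tubulin, measured 8.63 and 8.61 with PAXIP1-AS1 siRNA, against 9.21 and 9.30 with its control. It measured 9.63 and 9.69 with siRNA 1 and 9.57 and 9.48 with siRNA 2, against 9.35 and 9.27, a difference of -0.92 ± 0.08 (SE, limma adjusted p = 0.000795). The PAXIP1-AS1 arrays were the lowest of the 10. TAF12, a subunit of the general transcription factor TFIID, had a difference of -0.68, and PEA15, a death effector domain protein that binds ERK, -0.63. Of the 8 genes of this direction the siRNA 1 effect was called in 3, RITA1, PCDH10 and IFT46, and it was 0.08 in TAF12 and -0.03 in PEA15. ANKRD42, an ankyrin repeat protein, had -0.85, and OTUD3, a deubiquitinase, -0.54. ANKRD42 reached the median level of all genes (7.66) only with the LOC440173 siRNAs. The PAXIP1-AS1 call of OTUD3 ended without any 1 of the 10 arrays.

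**Figure D3:**
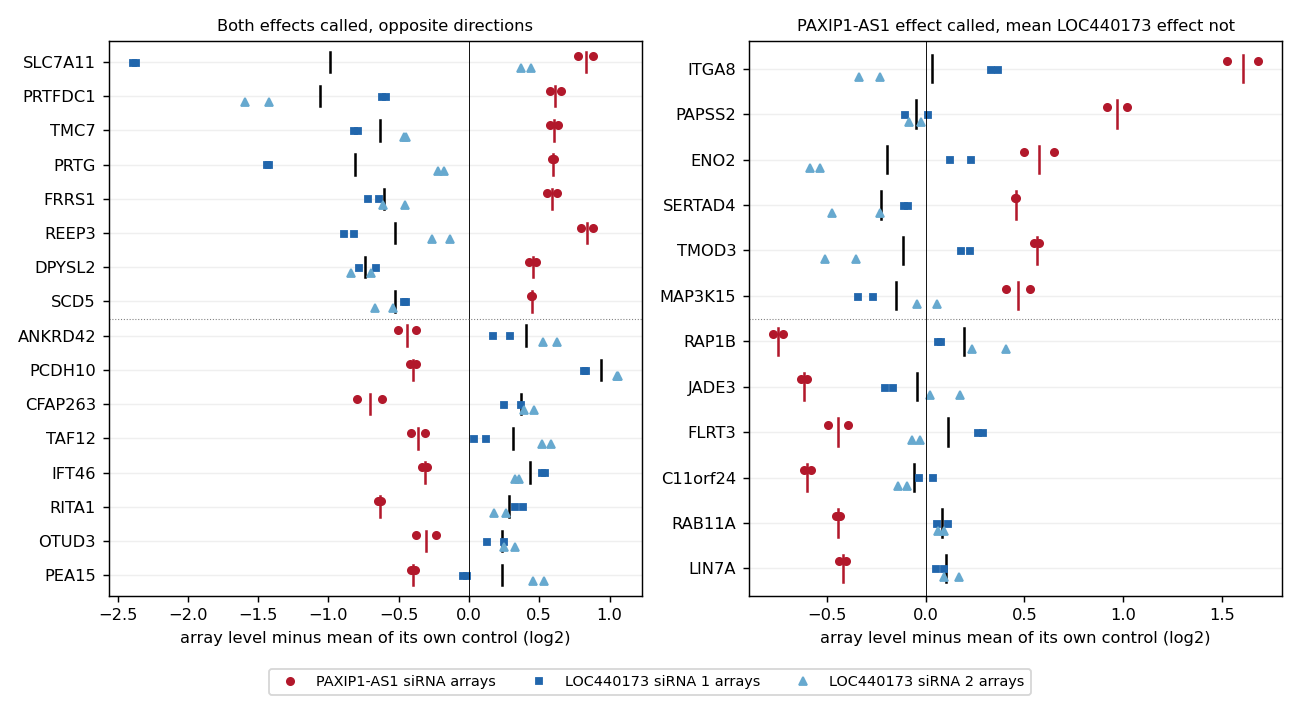
Array levels minus the mean of their own control (log2) for genes called in opposite directions in both effects (left) and genes called in the PAXIP1-AS1 effect and not in the mean LOC440173 effect (right), with red circles for PAXIP1-AS1 siRNA, blue squares for siRNA 1 and light blue triangles for siRNA 2. Red and black bars mark the mean PAXIP1-AS1 and mean LOC440173 effects. Genes were chosen so that the red circles lie outside the range of the blue symbols.

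Among the 167 genes called in the difference and in the PAXIP1-AS1 effect but not in the mean LOC440173 effect (0.907%), ITGA8 and PAPSS2 stood out in size. ITGA8, the alpha8 integrin chain known for its part in kidney development, measured 7.89 and 8.04 with PAXIP1-AS1 siRNA, against 6.42 and 6.30 with its control. It measured 6.85 and 6.88 with siRNA 1 and 6.18 and 6.29 with siRNA 2, against 6.34 and 6.70. The PAXIP1-AS1 arrays were above all the others by more than the whole spread of the rest, and the difference was 1.57 ± 0.15 (SE, limma adjusted p = 0.00121). The LOC440173 effects were 0.35 and -0.28, neither of them called. Only the PAXIP1-AS1 mean of 7.97 reached the median level of all genes (7.66), and the other group means were 6.23 to 6.86.

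PAPSS2, which makes the sulfate donor PAPS, measured 9.14 and 9.24 with PAXIP1-AS1 siRNA, against 8.19 and 8.26. It measured 8.30 and 8.18 with siRNA 1 and 8.20 and 8.26 with siRNA 2, against 8.30 and 8.27. All LOC440173 arrays lay at the level of the controls, and the difference was 1.02 ± 0.09 (SE, limma adjusted p = 0.000771), nearly equal to the PAXIP1-AS1 effect of 0.97. ENO2 had a difference of 0.77, but its LOC440173 effects were 0.18 and -0.56, the second of them called. TMOD3, a cap of actin filament ends, was alike, with a difference of 0.68 and LOC440173 effects of 0.20 and -0.43. MAP3K15, a kinase of the apoptosis signal-regulating family, had 0.62. SERTAD4 had 0.68, and this call ended without PAXIP1-AS1 replicate 1, PAXIP1-AS1 replicate 2 or 100 nM control replicate 1 (limma adjusted p 0.0605 to 0.0652).

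On the lower side C11orf24 measured 9.89 and 9.85 with PAXIP1-AS1 siRNA, against 10.45 and 10.49, and 10.35 to 10.52 on the LOC440173 arrays, against 10.49 and 10.48. Its difference was -0.54 ± 0.07 (SE, limma adjusted p = 0.00268). JADE3, a PHD finger protein of a histone acetyltransferase complex, had a difference of -0.57, and FLRT3, a leucine-rich repeat adhesion protein, -0.56. RAB11A, the small GTPase of recycling endosomes, had -0.53, and this call ended without PAXIP1-AS1 replicate 2. LIN7A, a scaffold of cell polarity, had -0.52. The PAXIP1-AS1 call held without any 1 array in 4 of these 12 genes, namely ITGA8, PAPSS2, JADE3 and C11orf24.

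The mean of the LOC440173 siRNAs can hide opposite effects, and the difference of effects was called with opposite signs against siRNA 1 and siRNA 2 in 302 genes (1.64%), of which 280 were not called for the mean (1.52%). It was higher against siRNA 1 in 175 of them (0.951%) and lower in 127 (0.69%). Set against each other, siRNA 2 and siRNA 1 differed by call in 6836 genes (37.1%), 3348 higher with siRNA 2 (18.2%) and 3488 lower (19.0%). ARRDC3, an alpha-arrestin, measured 8.80 and 8.87 with PAXIP1-AS1 siRNA and 8.58 and 8.88 with its control. It measured 7.60 and 7.39 with siRNA 1 and 10.12 and 10.31 with siRNA 2, against 8.65 and 8.83. The difference was 1.35 against siRNA 1, -1.37 against siRNA 2 and -0.01 for the mean (95% interval -0.39 to 0.36, limma adjusted p = 0.966). SLC6A6, the taurine transporter, had 0.84 against siRNA 1 and -0.94 against siRNA 2, and PRKAB2, a beta subunit of AMPK, 0.75 and -1.05. In GXYLT2, a xylosyltransferase, the values were 1.00 and -0.73.

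The other direction was led by TES, testin, a focal adhesion protein. It measured 10.05 and 10.12 with PAXIP1-AS1 siRNA and 10.08 and 10.16 with its control. It measured 10.86 and 10.86 with siRNA 1 and 8.89 and 8.98 with siRNA 2, against 10.13 and 10.14. The difference was -0.76 against siRNA 1 and 1.17 against siRNA 2. ID3, an inhibitor of basic helix-loop-helix factors, had -0.81 and 0.69, YPEL3 -0.94 and 0.80, and GRAMD1C, a sterol transfer protein, -0.75 and 0.71. The siRNA 1 and siRNA 2 effects share their control arrays, so no relation between them is drawn.

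Of 18 pathway lists, the list of ATF4 targets, which includes amino acid enzymes and carriers, had the largest share called. ATF4 is the transcription factor that is translated when amino acids are short or the endoplasmic reticulum is under stress, and its targets import and make amino acids. Of 30 measured members 17 were higher in the difference of effects and 0 lower, against 8.79% and 2.78% of all genes, and the list median was 0.35, against -0.02 over all genes. In the PAXIP1-AS1 effect 10 were higher and 0 lower, with a median of 0.21, against 2.86% and 1.76% of all genes. With siRNA 1, 2 were higher and 18 lower (median -0.27), against 12.1% and 16.7% of all genes. With siRNA 2, 13 were higher and 7 lower (median 0.08), against 12.5% and 17.4%. Against siRNA 1 alone 18 members were called higher and 0 lower, against 11.0% and 5.82% of all genes. The difference against siRNA 2 alone was called higher in 11 and lower in 0, against 11.2% and 6.04%. In 6 members it was called higher for the mean and for each siRNA alone, against 3.34% of all genes.

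Among its transporters SLC1A4, a carrier of neutral amino acids, had a PAXIP1-AS1 effect of 0.30 and LOC440173 effects of -1.27 with siRNA 1 and -0.63 with siRNA 2, for a difference of 1.25 ± 0.10 (SE, limma adjusted p = 0.000745). SLC7A5, the leucine carrier LAT1, had a difference of 0.78, on a PAXIP1-AS1 effect of 0.01 and LOC440173 effects of -0.98 and -0.57. Members named from here on beyond the 3 of smallest p in a list were chosen after their values were seen. SLC1A5, a glutamine carrier, had 0.41, with 0.83 against siRNA 1 and -0.01 against siRNA 2. Among the enzymes SHMT2, the mitochondrial serine hydroxymethyltransferase, rose in both arms and rose further with PAXIP1-AS1. It measured 11.67 and 11.69 with PAXIP1-AS1 siRNA, against 10.33 and 10.38. It measured 11.22 and 11.27 with siRNA 1 and 11.17 and 11.17 with siRNA 2, against 10.45 and 10.49, for a difference of 0.58 ± 0.06 (SE, limma adjusted p = 0.00179). PHGDH, the first enzyme of serine synthesis, had 0.37, with 0.64 against siRNA 1 and 0.11 against siRNA 2, the second not called. ASNS, asparagine synthetase, had 0.61, with 1.26 against siRNA 1 and -0.04 against siRNA 2. CHAC1, which degrades glutathione, had 0.98. ATF4 itself was not called, at 0.23 (limma adjusted p = 0.0907).

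**Figure D4:**
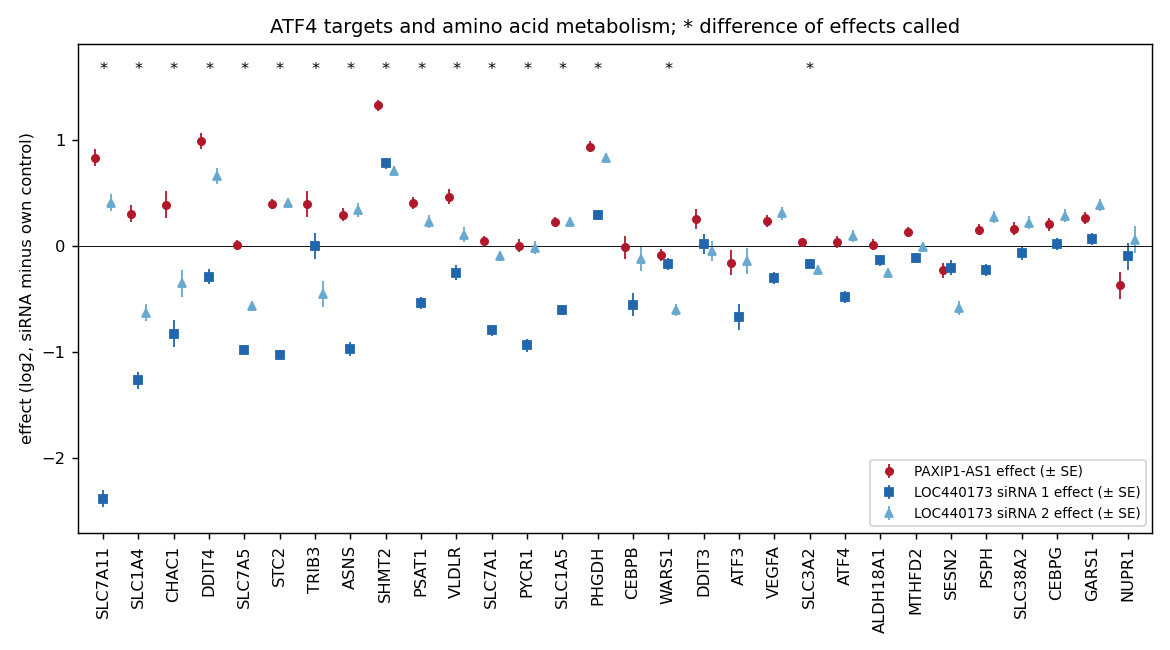
Effects (log2, siRNA minus own control, bars are ± SE of the fit) of the 30 measured members of the ATF4 list, with red circles for PAXIP1-AS1, blue squares for LOC440173 siRNA 1 and light blue triangles for siRNA 2. An asterisk marks the 17 members called in the difference, such as ASNS and SLC7A11, where siRNA 1 lies far below the other siRNAs.

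ATF4 binds DNA as a dimer with C/EBP proteins at composite elements, searched for here as TGATGNAA or its reverse complement TTNCATCA on both strands in the 250 bases before each RefSeq gene start (GRCh38.p14). Of the 30 list genes 24 had such a window, and 6 of these held the element, against 3.89% of the 27305 genes of the table and 3.14% of its windows. Of the 17 called members 14 had a window and 3 held it. ATF3, GARS1 and CEBPG held it too and were not called, and whether the element goes with the call was not tested. The list was chosen for ATF4 targets, so its share above that of all genes is no test. The windows of the 3 called members that hold the element are shown, written in the direction of the gene with the element in capitals. The element began 68 bases before the start of ASNS (chr7:97872409-97872658, minus strand), 209 before CHAC1 (chr15:40953221-40953470, plus strand) and 97 before SLC1A5 (chr19:46784815-46785064, minus strand).
ASNS: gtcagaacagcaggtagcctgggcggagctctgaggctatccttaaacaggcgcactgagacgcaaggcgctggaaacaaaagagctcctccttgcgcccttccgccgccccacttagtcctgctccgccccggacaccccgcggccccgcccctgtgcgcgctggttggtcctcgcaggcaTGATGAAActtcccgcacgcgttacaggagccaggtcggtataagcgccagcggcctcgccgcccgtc
CHAC1: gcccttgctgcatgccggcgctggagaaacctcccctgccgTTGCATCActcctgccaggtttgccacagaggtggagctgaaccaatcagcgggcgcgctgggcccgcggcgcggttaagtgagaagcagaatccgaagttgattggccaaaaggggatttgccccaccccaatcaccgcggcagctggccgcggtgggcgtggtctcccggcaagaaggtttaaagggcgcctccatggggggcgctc
SLC1A5: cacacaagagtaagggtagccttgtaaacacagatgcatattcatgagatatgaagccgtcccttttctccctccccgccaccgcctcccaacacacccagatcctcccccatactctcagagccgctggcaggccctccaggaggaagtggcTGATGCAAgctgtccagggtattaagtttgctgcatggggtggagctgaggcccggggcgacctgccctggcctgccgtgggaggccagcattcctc
A match is a description of these letters, and binding was not measured.

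The glycolysis and hypoxia list had 13 of 28 measured members higher in the difference (46.4%, against 8.79% of all genes) and 0 lower (median 0.27). In the PAXIP1-AS1 effect 4 were higher (14.3%, against 2.86% of all genes) and 1 lower (3.57%, against 1.76%). With siRNA 1 4 were higher (14.3%, against 12.1%) and 12 lower (42.9%, against 16.7%), and with siRNA 2 3 were higher (10.7%, against 12.5%) and 15 lower (53.6%, against 17.4%). SLC2A1, the glucose transporter GLUT1, measured 10.41 and 10.38 with PAXIP1-AS1 siRNA, against 10.21 and 10.13. It measured 9.79 and 9.80 with siRNA 1 and 9.65 and 9.66 with siRNA 2, against 10.26 and 10.32, and the difference was 0.79 ± 0.07 (SE, limma adjusted p = 0.000806). HK2, hexokinase 2, had 0.77 for the mean, but 1.45 against siRNA 1 and 0.09 against siRNA 2. PFKFB3, which makes the activator of phosphofructokinase, had 0.73, with 0.68 and 0.78 against the 2 siRNAs. The glycolytic enzyme PGK1 had 0.69, called against siRNA 2 at 1.16 and not against siRNA 1 at 0.21. The count was 8 without PAXIP1-AS1 replicate 2 and 20 with dim genes left out.

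Of 29 measured members of the matrix and TGF-beta list 12 were higher in the difference (41.4%, against 8.79% of all genes). The 1 lower member was ACTA2 (3.45%, near the 2.78% of all genes), and the list median was 0.27. In the PAXIP1-AS1 effect 2 were higher and 2 lower (6.9% each, against 2.86% and 1.76% of all genes). With siRNA 1, 2 were higher (6.9%, against 12.1% of all genes) and 16 lower (55.2%, against 16.7%). With siRNA 2, 1 was higher (3.45%, against 12.5%) and 14 lower (48.3%, against 17.4%). FN1, fibronectin, measured 9.42 and 9.48 with PAXIP1-AS1 siRNA, against 9.50 and 9.52. It measured 8.84 and 8.91 with siRNA 1 and 7.79 and 7.91 with siRNA 2, against 9.53 and 9.57, and the difference was 1.12 ± 0.08 (SE, limma adjusted p = 0.000380). LOX, which crosslinks collagen and elastin, had 1.25, with 1.32 and 1.17 against the 2 siRNAs. The ligand TGFB1 had 0.90 and the receptors TGFBR2 and TGFBR1 0.81 and 0.79, with that of TGFBR2 not called against siRNA 1 (0.31). TIMP1 had 0.98, with 0.09 against siRNA 1 and 1.86 against siRNA 2.

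The DNA replication and G1/S list had 11 of 34 members higher (32.4%, against 8.79% of all genes) and 0 lower (median 0.13). Here the LOC440173 siRNAs parted. Against siRNA 1 the difference was higher in 5 members (14.7%, near the 11.0% of all genes) and lower in 6 (17.6%, against 5.82%). Against siRNA 2 it was higher in 15 (44.1%, against 11.2%) and lower in 0. CDC45, a part of the replicative helicase, had 0.49, with 0.72 and 0.26. GINS3, another part, had 0.43, with -0.14 against siRNA 1 and 1.00 against siRNA 2. UHRF1, which maintains DNA methylation, had 0.49 from its brightest probe set and 0.12 (limma adjusted p = 0.401) from the mean of its probe sets. CCNE2, cyclin E2, rose with PAXIP1-AS1 siRNA by 0.74 and had a difference of 0.47 with 0.47 and 0.46 against the 2 siRNAs. The count of 11 ranged over 3 to 14 in the settings tried, and was 3 or 4 without any 1 of the PAXIP1-AS1 and 100 nM control arrays, 5 without either siRNA 1 array and 7 without siRNA 2 replicate 1 or 10 nM control replicate 2.

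Genes of the unfolded protein response and folding in the endoplasmic reticulum were higher in 7 of 24 members (29.2%, against 8.79% of all genes). Lower members numbered 0, and the median was 0.22. In the PAXIP1-AS1 effect 1 was higher (4.17%, near the 2.86% of all genes) and 0 lower. HYOU1, a chaperone of that compartment, measured 10.26 and 10.30 with PAXIP1-AS1 siRNA, against 10.10 and 10.11. It measured 10.10 and 10.14 with siRNA 1 and 8.53 and 8.57 with siRNA 2, against 10.12 and 10.13. The siRNA 2 arrays stood far below all others, for a difference of 0.96 for the mean (limma adjusted p = 0.000289), 0.18 against siRNA 1 and 1.75 against siRNA 2. KDELR3, which retrieves escaped resident proteins, was alike at 0.87, with -0.18 and 1.91. CREB3L2, a membrane-bound transcription factor of secretory cells, had 0.84, called against both siRNAs at 0.71 and 0.98. XBP1, the factor that drives the response after splicing, had 0.46, with 0.47 and 0.45. With dim genes left out the count was 12 higher, and with all controls pooled 15 higher and 2 lower.

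The lysosome and autophagy list had 7 of 23 members higher (30.4%, against 8.79% of all genes) and 1, SQSTM1, lower (4.35%, against 2.78%, list median 0.14). Again siRNA 2 carried most of it. Against siRNA 1, 2 members were higher (8.7%, against 11.0% of all genes) and 4 lower (17.4%, against 5.82%). Against siRNA 2, 13 were higher (56.5%, against 11.2%) and 3 lower (13.0%, against 6.04%). ATP6V0D1, a subunit of the proton pump, measured 11.21 and 11.25 with PAXIP1-AS1 siRNA, against 11.42 and 11.44. It measured 11.43 and 11.47 with siRNA 1 and 8.91 and 8.90 with siRNA 2, against 11.43 and 11.42, and the difference was 1.04 for the mean, -0.23 against siRNA 1 (limma adjusted p = 0.0507) and 2.32 against siRNA 2. GLA, alpha-galactosidase A, had 0.59 and ATP6V1A, another pump subunit, 0.51, both called against each siRNA. The SQSTM1 call ended with array weights and without 9 of the 10 single arrays. The 7 higher became 4 without PAXIP1-AS1 replicate 1 or 100 nM control replicate 1, and 5 without PAXIP1-AS1 replicate 2, 100 nM control replicate 2, either siRNA 1 array or 10 nM control replicate 2.

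The NRF2 and glutathione list had 6 of 22 members higher (27.3%, against 8.79% of all genes) and 0 lower (median 0.13). Besides SLC7A11, ME1, malic enzyme, measured 9.71 and 9.73 with PAXIP1-AS1 siRNA, against 9.17 and 9.17. It measured 8.70 and 8.77 with siRNA 1 and 9.18 and 9.26 with siRNA 2, against 9.09 and 9.25, and the difference was 0.75 (limma adjusted p = 0.00213). MGST1, a microsomal glutathione transferase, had 1.08, on a PAXIP1-AS1 effect of -0.35 (not called) and LOC440173 effects of -1.05 and -1.81. GCLM, the modifier subunit of glutathione synthesis, had 1.09.

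Wnt and Notch targets were higher in 5 of 22 members (22.7%, against 8.79% of all genes) and lower in 0 (median 0.10). LGR5, a receptor of Wnt-responsive stem cells, had 1.35, the Wnt inhibitor DKK1 0.53 and the receptor NOTCH1 0.41. Its ligand DLL1 had 0.36 and the Notch target HEY1 0.30. HEY1 fell in both arms, with effects of -0.26 for PAXIP1-AS1 and -0.56 for the LOC440173 mean. LGR5 measured 7.76 and 7.99 with PAXIP1-AS1 siRNA and 7.82 and 7.91 with its control. It measured 6.87 and 6.93 with siRNA 1 and 6.22 and 6.62 with siRNA 2, against 7.90 and 8.10. Without any 1 of the PAXIP1-AS1 or 100 nM control arrays 1 or 2 members were called, and without a 10 nM control array 3 were. Cholesterol and fatty acid synthesis had 4 of 23 higher (17.4%, against 8.79% of all genes) and 0 lower (median 0.08). These were the desaturases FADS1 at 0.98 and FADS2 at 0.77 and the sterol enzymes SQLE at 0.68 and LSS at 0.53. Against siRNA 1, 8 members of this list were higher (34.8%, against 11.0% of all genes) and 1 lower (4.35%, against 5.82%). Against siRNA 2, 4 were higher (17.4%, against 11.2%) and 4 lower (17.4%, against 6.04%). For the mean, 6 were higher and 2 lower with a trended robust prior, and 7 and 3 with all controls pooled.

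**Figure D5:**
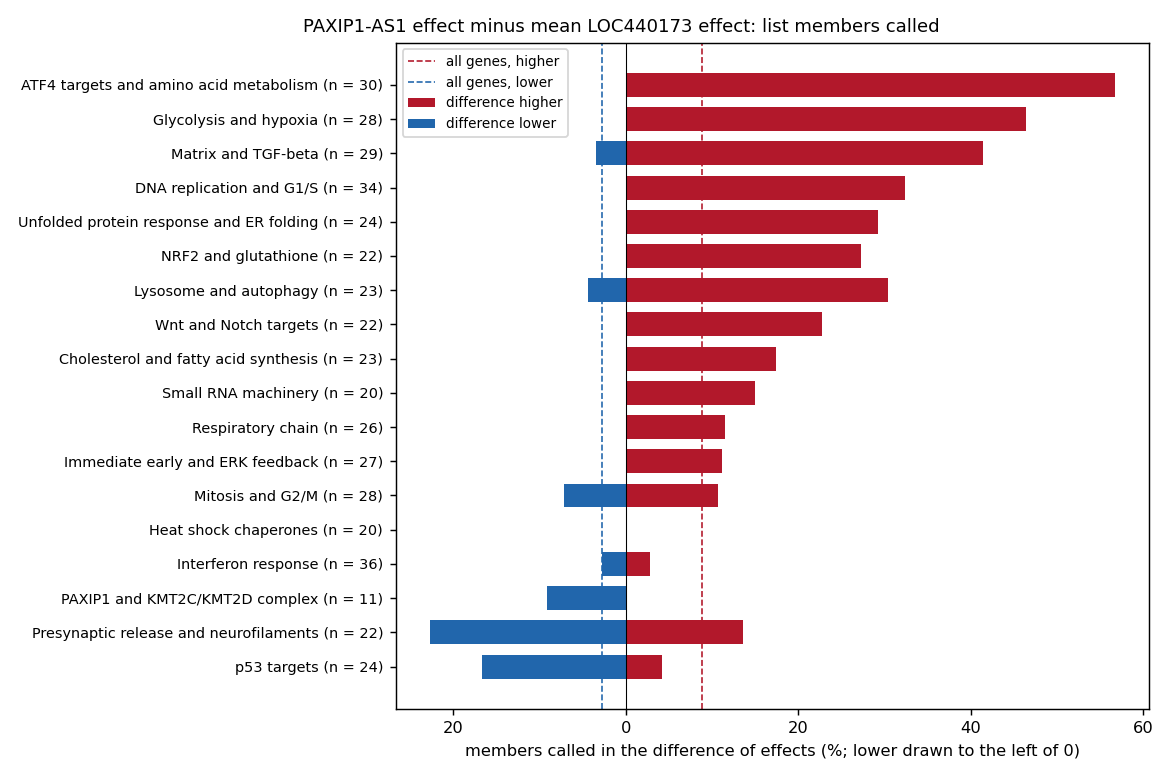
Share of measured members (%) called higher (red, right of 0) or lower (blue, drawn left of 0) in the PAXIP1-AS1 effect minus the mean LOC440173 effect, with dashed lines at 8.79% and 2.78% for all genes. The ATF4, glycolysis and matrix lists reach furthest to the right, and the presynaptic and p53 lists furthest to the left.

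In the p53 list members fell in both arms. Of 24 members 0 were higher and 14 lower in the PAXIP1-AS1 effect (58.3%, against 1.76% of all genes). With siRNA 1 0 were higher and 13 lower (54.2%, against 16.7%), and with siRNA 2 0 were higher and 16 lower (66.7%, against 17.4%). In the difference of effects 1 member was higher (4.17%, against 8.79% of all genes), TP53INP1, an autophagy and apoptosis protein, at 0.36. In it 4 were lower (16.7%, against 2.78%), and the median was -0.14. The lower ones were CDKN1A, the cell cycle inhibitor p21, at -0.40, TIGAR, a phosphatase that slows glycolysis, at -0.41, the repair protein XPC at -0.30, and the death receptor TNFRSF10B at -0.26. CDKN1A measured 8.29 and 8.21 with PAXIP1-AS1 siRNA, 8.65 and 8.61 with siRNA 1, and 8.74 and 8.71 with siRNA 2, against 8.94 to 9.05 on the 4 control arrays. All 3 siRNAs lay below the controls, PAXIP1-AS1 lowest. Its difference had a limma adjusted p of 0.0150 with all arrays, 0.0751 without PAXIP1-AS1 replicate 2 and 0.0596 without 100 nM control replicate 2. The list had 0 lower members without PAXIP1-AS1 replicate 2 or 100 nM control replicate 2, 1 without either siRNA 1 array or 100 nM control replicate 1, and 2 without PAXIP1-AS1 replicate 1 or 10 nM control replicate 1. It had 4 higher and 8 lower with all controls pooled, and 4 and 7 with dim genes left out. Against siRNA 1, 3 members were higher (12.5%, against 11.0% of all genes) and 10 lower (41.7%, against 5.82%). Against siRNA 2, 3 were higher (12.5%, against 11.2%) and 3 lower (12.5%, against 6.04%).

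Presynaptic and neurofilament genes had 3 of 22 members higher (13.6%, against 8.79% of all genes) and 5 lower (22.7%, against 2.78%). The list median was -0.22. Against siRNA 1, 3 were higher (13.6%, near the 11.0% of all genes) and 0 lower. Against siRNA 2, 6 were higher (27.3%, against 11.2%) and 7 lower (31.8%, against 6.04%). RAB3B, a GTPase of vesicle release, measured 8.05 and 8.02 with PAXIP1-AS1 siRNA, against 8.06 and 8.07. It measured 7.15 and 7.02 with siRNA 1 and 7.07 and 7.10 with siRNA 2, against 8.02 and 7.99, for a difference of 0.89 for the mean and against each siRNA. UNC13A, a priming factor of synaptic vesicles, measured 5.86 and 5.80 with PAXIP1-AS1 siRNA, against 5.76 and 5.73. It measured 5.95 and 5.86 with siRNA 1 and 7.69 and 8.03 with siRNA 2, against 5.71 and 5.80, so its difference of -1.04 came from siRNA 2, with -0.07 against siRNA 1. NEFM had -0.69, with 0.25 against siRNA 1 and -1.63 against siRNA 2. RAB3A had 0.65 and the vesicle protein SV2A 0.97, while RAB3C had -0.99, NEFL -0.34 and SYP -0.29. The 5 lower members became 2 without either PAXIP1-AS1 array or 100 nM control replicate 1, and 3 without 100 nM control replicate 2, either siRNA 1 array or 10 nM control replicate 2.

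Of the remaining 6 lists none had more than 5 members called in the difference for the mean. Mitosis and G2/M genes had 3 of 28 higher (10.7%, near the 8.79% of all genes) and 2 lower (7.14%, against 2.78%). The higher ones were BIRC5, AURKA and CDC25B, at 0.58, 0.45 and 0.39, and the lower ones NUSAP1 and KIF2C, at -0.53 and -0.43. The 3 higher ones were called against siRNA 2 and not against siRNA 1. Without either PAXIP1-AS1 array or 100 nM control replicate 2, 1 member was higher and 0 lower, and without 100 nM control replicate 1 or 10 nM control replicate 2, 1 was higher. Against siRNA 1, 1 member was higher (3.57%, against 11.0% of all genes) and 3 lower (10.7%, against 5.82%). Against siRNA 2, 6 were higher (21.4%, against 11.2%) and 2 lower (7.14%, against 6.04%). Small RNA machinery had 3 of 20 higher (15.0%, against 8.79% of all genes) and 0 lower. These were the Argonaute genes AGO1 at 0.56 and AGO2 at 0.25, and TSN, translin, at 0.46. The AGO2 call ended without 9 of the 10 single arrays, with limma adjusted p between 0.0594 and 0.136. Immediate early and ERK feedback genes had 3 of 27 higher for the mean (11.1%, also near the 8.79% of all genes). These were SPRED2 and SPRED1, inhibitors of the ERK pathway, at 0.85 and 0.45, and JUN at 0.35. The count was 1 without either siRNA 1 array, either PAXIP1-AS1 array, 100 nM control replicate 1 or 10 nM control replicate 2. Respiratory chain genes had 3 of 26 higher (11.5%, likewise near it), NDUFB5 at 0.45, NDUFA9 at 0.29 and ATP5F1B at 0.24. The count was 0 without PAXIP1-AS1 replicate 2 or 100 nM control replicate 1, and 1 without PAXIP1-AS1 replicate 1, 100 nM control replicate 2, 10 nM control replicate 1, siRNA 1 replicate 1 or siRNA 2 replicate 2. The ATP5F1B call ended whichever array was left out. Interferon response genes had 1 of 36 higher, IFITM2 at 0.65, a call that ended without any 1 of the PAXIP1-AS1 and 100 nM control arrays or 10 nM control replicate 2. The share higher was 2.78%, below the 8.79% of all genes. In this list 1 member was lower (2.78%, the same as over all genes), IFI35 at -0.79, which was -1.65 against siRNA 1 and 0.08 against siRNA 2. Heat shock chaperones had 0 of 20 called by limma in the difference for the mean. At an unadjusted p under 0.05, 2 were higher and 3 lower. Against siRNA 1, 2 were called higher (10.0%, against 11.0% of all genes) and 1 lower (5.0%, against 5.82%). Against siRNA 2, 0 were called higher and 1 lower (5.0%, against 6.04%).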

How the data were processed

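Expression was measured on 10 Affymetrix arrays of HEK-293 cells, 2 in each of 5 groups taken from the sample titles. The deposited values are log2 levels, made by the authors with RMA (background correction, quantile normalization and probe summary), and limma is also named, per the submitters' processing notes, versions not given in the sources used here. The table held 32321 probe sets, of which 19158 carried 1 gene symbol in the platform annotation, 1388 several and 11775 none, and only the first kind was used. Of 18404 genes, 18376 had their ID in the RefSeq table (GRCh38.p14), which changed 0 symbols, and 637 genes had several probe sets, of which the brightest over all arrays was kept. Array medians lay between 7.06 and 7.12, and replicate arrays correlated at 0.994 to 0.997. The number of arrays limits the precision, since each group had 2.

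A mean per group was fitted to all arrays with limma 3.58.1 in R 4.3.3 (lmFit, contrasts.fit, eBayes), and p-values were adjusted by Benjamini-Hochberg over all genes, two-sided, called under 0.05. An exact permutation test of 2 against 2 arrays cannot go below p = 0.333 and was not used. Named genes were the 12 highest and 12 lowest differences called for the mean and each siRNA alone, without overlap and at or above the median level, 8 each way called in opposite directions, 6 each way called for PAXIP1-AS1 and not the LOC440173 mean, 4 each way with opposite signs by siRNA, the targets and PAXIP1, and the 3 called members of smallest p per list. The members and lists were chosen with earlier results of these data known. Alternatives were pooled controls, array weights, other probe set rules, renewed quantile normalization, a replicate block, a trended robust prior, dim genes left out, only the compared groups, a 1.5-fold minimum and each array left out.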

Additional observations from a re-analysis of the deposited data

Results flagged for a closer look

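The difference from the PAXIP1-AS1 effect was called with opposite signs by siRNA in 302 genes (1.64%), and 8 were named by size. In each of the 8 the 2 LOC440173 siRNA effects were also called in opposite directions. The genes were picked by the contrast between the siRNAs. A limma call in siRNA 2 minus siRNA 1 therefore followed from the choice and is no further test. siRNA 2 stood higher by 2.72 in ARRDC3 (log2, limma adjusted p = 3.73e-06), by 1.78 in SLC6A6, by 1.80 in PRKAB2 and by 1.72 in GXYLT2. The difference was -1.74 in YPEL3, -1.93 in TES (limma adjusted p = 1.51e-06), -1.46 in GRAMD1C and -1.50 in ID3. In each of the 8 genes both arrays of siRNA 2 lay on 1 side of both arrays of siRNA 1, which this choice of genes favours. Whether target silencing or the sequence of either siRNA moved these genes was not tested.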

How the results depend on the processing

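The difference of effects was called for 2129 genes (76.0% higher), against 4559 with all controls pooled (62.0% higher), 624 at 1.5-fold or more (85.4% higher) and 923 to 2139 with 1 array left out. Against siRNA 1 alone the 3100 calls became 5183, 1072 and 1695 to 3624 in these settings, and against siRNA 2 alone the 3168 became 5147, 1153 and 1917 to 2867. The 807 genes called for the mean and each siRNA became 1555 with pooled controls, 1227 with dim genes left out and 358 to 929 with 1 array left out. The PAXIP1-AS1 effect had 850 calls, and 1544 with array weights, 1889 with dim genes left out, 432 over every probe set, 181 with only the compared groups, 1784 with a trended robust prior, 112 at 1.5-fold or more and 110 to 895 with 1 array left out. The mean LOC440173 effect had 4754 calls (36.2% higher), 601 at 1.5-fold or more (17.3% higher) and 3547 to 4417 with 1 array left out. The 118 genes called in opposite directions became 306 with dim genes left out, 49 over every probe set, 18 with only the compared groups, 264 with a trended robust prior and 11 to 116 with 1 array left out. Same-numbered arrays correlated at 0.07 to 0.53 in their deviations from the group means, below 0.1 in the 4 pairs with siRNA 1 and at 0.29 to 0.53 in the other 6, so the rule that every pair exceed 0.1 was not met and the numbers were not taken to pair the samples. With the replicate block the counts were 3015 for the difference, 1325 for the PAXIP1-AS1 effect, 1188 for the mean and each siRNA, and 213 in opposite directions. Of 90 named genes called in the difference, 70 kept the call in all 17 settings tried on each, and 0 changed sign. The cause of these moves was not tested. With pooled controls the control terms cancel, which leaves a direct comparison of the PAXIP1-AS1 and LOC440173 siRNA arrays. In that comparison 2081 of the 2129 genes were also called with the same sign.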
